A study of Mus musculus with 37 samples.

Results

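The 10 genes described here are core parts and direct outputs of the circadian clock: Per1, Per2, Per3, Cry1, Cry2, Clock, Nr1d1, Nr1d2, Dbp and Ciart. They were found by gene symbol among the 57180 genes of the deposited count tables, and all 10 were present and passed the filter on low counts in every comparison. Their levels were compared between the dopamine neurons and the GABA neurons of the mouse ventral midbrain and between young and old mice.

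RNA bound to tagged ribosomes was measured in 37 mice, with 1 RNA sequencing library per mouse. Every mouse carried NuTRAP, a transgene in the Rosa26 locus that, once Cre has removed a stop sequence, tags ribosomes with GFP. In DAT;NuTRAP mice (called DAT libraries here) Cre came from DATIREScre, expressed from the gene of the dopamine transporter, and in VGAT;NuTRAP mice (VGAT libraries) from Vgat-ires-cre, expressed from the gene of the vesicular GABA transporter. There were 10 young DAT mice (5 females and 5 males, 8 to 10.5 months old), 9 old DAT mice (4 females and 5 males, 21 months), 10 young VGAT mice (6 females and 4 males, 7 to 9 months) and 8 old VGAT mice (5 females and 3 males, 21 months except 1 female of 24 months). Tissue was collected under isoflurane. The mice lived under a cycle of light and dark, but the time of day at which each mouse was killed is not given in the sources used here, so no value below can be placed at a phase of the day.

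The clock is a feedback loop within single cells that takes about a day to complete. CLOCK and its partner BMAL1 switch on the Per and Cry genes, whose proteins then return to the nucleus and repress CLOCK and BMAL1. A further loop runs through Nr1d1 and Nr1d2, which encode the nuclear receptors REV-ERB alpha and beta, repressors of Bmal1 and Clock transcription. In the midbrain, clock proteins are known to act on genes of dopamine synthesis and breakdown, among them tyrosine hydroxylase and monoamine oxidase A.

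Library totals ran from 13841253 to 38235015 counts. The labels assign each library to a first or a second batch, and whether a batch of the same name was shared by both models is not stated. The DAT libraries comprised 8 of the first and 11 of the second batch, and the VGAT libraries 6 and 12. In each of the 11 second-batch DAT libraries, 14323 to 18170 genes had reads, against at least 18485 in every other library. The summed level of 6 dopamine neuron markers was 9561 to 14124 CPM (each count relative to its library's total, scaled by library composition) in DAT and 720 to 3060 CPM in VGAT libraries. For 3 GABA neuron markers the sums were 201 to 631 and 3155 to 4340 CPM. Both labels thus matched their markers without overlap, and no library was at 0 for either list. Oligodendrocyte markers (10 genes) had a median sum of 1318 CPM in DAT and 392 CPM in VGAT libraries, and between batches of DAT mice all 10 of them were higher in the second (median log2 difference 1.63, edgeR quasi-likelihood test with Benjamini-Hochberg adjustment). All sums come from bulk pulldowns, in which fewer cells of a type and less RNA per cell cannot be told apart.

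Short stretches upstream of the members are shown first, because clock factors are known to bind short recurring motifs in these genes. The 250 bases before the canonical start of each gene were searched on both strands for the E-box CACGTG and the E'-box CACGTT, which reads AACGTG on the other strand, to which CLOCK and BMAL1 bind. They were also searched for the D-box (TTATGTAA or TTACGTAA), to which DBP binds, for the ROR element TAGGTCA, to which REV-ERB and ROR receptors bind, and for the cAMP response element TGACGTCA. Each window has 30 bases of build GRCm39 on the gene's strand, with the motif in capitals.
Per1, chr11:68989234-68989263, plus strand, E-box: accccttaacgaCACGTGggccctcaattg
Per2, chr1:91387153-91387182, minus strand, D-box: ccatgtgcgtcTTATGTAAagagagcgacg
Per3, chr4:151129309-151129338, minus strand, D-box: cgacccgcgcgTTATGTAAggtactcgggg
Per3, chr4:151129262-151129291, minus strand, D-box: cccgcccgcggTTATGTAAcccccgccgtg
Cry1, chr10:85020971-85021000, minus strand, E'-box and E-box: agaAACGTGaggtgccggtggtCACGTGgg
Cry2, chr2:92264563-92264592, minus strand, E'-box: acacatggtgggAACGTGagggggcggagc
Nr1d1, chr11:98666214-98666243, minus strand, E'-box: cgcacagatctcAACGTGccggctgctgga
Dbp, chr7:45354311-45354340, plus strand, ROR element: attggccaaataTAGGTCAgtgtcccgcct
Ciart, chr3:95789639-95789668, minus strand, E-box: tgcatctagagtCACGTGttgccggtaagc
Ciart, chr3:95789574-95789603, minus strand, 2 E-boxes: ggaggCACGTGcagaaccgCACGTGtctgg

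The E-box lay in 3 members (Per1, Cry1 and Ciart) and in 6.26% of 21757 promoters of protein-coding genes. The E'-box lay in 3 members (Cry1, Cry2 and Nr1d1) and in 4.16% of promoters. Only Per2 and Per3 among the members held the D-box, found in 0.933% of promoters, and Per3 held 2 copies. The ROR element, found in 2.16% of promoters, lay before Dbp alone, and the cAMP response element, in 1.70%, before none. For Clock and Nr1d2, none of these letter strings was found in this window, which says nothing about the rest of either gene. By annotation, the Per1 window falls in an intron of a longer Per1 transcript and the Cry1 window and the first Ciart window in exons of the genes themselves, outside the coding part. The second Ciart window is intronic, both Ciart windows also lie in an intron of the antisense noncoding RNA C920021L13Rik, the Dbp window lies in a noncoding part of an exon of the neighboring gene Car11, and the Cry2 window and the second Per3 window lie outside genes. Antisense noncoding RNAs also cover the remaining windows: an intron of Gm70796 at Per2, an exon of Gm69444 at the first Per3 window and an exon of Gm31862 at Nr1d1.

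Divided by exon length, Nr1d2 and Cry2 were the most abundant members. On this scale Cry2 stood at 13.5 ± 2.29 CPM per kb (SD, n = 19) in DAT and 13.4 ± 1.17 (n = 18) in VGAT libraries, while Nr1d2 stood at 10.5 ± 2.69 and 22.9 ± 2.84 CPM per kb. Among all genes tested, Cry2 and Nr1d2 stood at percentiles 81.6 and 77.2 of level per kb in DAT and at 82.2 and 89.8 in VGAT libraries. In DAT libraries the order then ran through Dbp (7.90 CPM per kb), Nr1d1 (6.39), Per1 (5.31), Cry1 (4.06), Clock (3.13), Ciart (2.84), Per2 (1.51) and Per3 (1.28). In VGAT libraries it ran through Nr1d1 (9.02 CPM per kb), Clock (6.03), Dbp (5.37), Per1 (4.85), Cry1 (4.25), Ciart (3.52), Per2 (2.84) and Per3 (1.64). Per2 and Per3 came last in both, and neighbors such as Clock and Ciart in DAT or Dbp and Per1 in VGAT libraries differed by less than 1 SD. Parts of 3 members' exons are shared with a gene on the opposite strand: 52.3% of Nr1d1 with Thra, 15.5% of Dbp with Sphk2 and 11.9% of Clock with Tmem165. The strand setting of the counting is not given, so the levels of these members, and their differences between cell types, are uncertain where reads of the partner gene could have been counted. Mean CPM in DAT and VGAT libraries was 716 and 670 for Thra, 46.3 and 32.2 for Sphk2 and 23.6 and 25.9 for Tmem165. The part of these in the members' values was not tested.

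**Figure D1:**
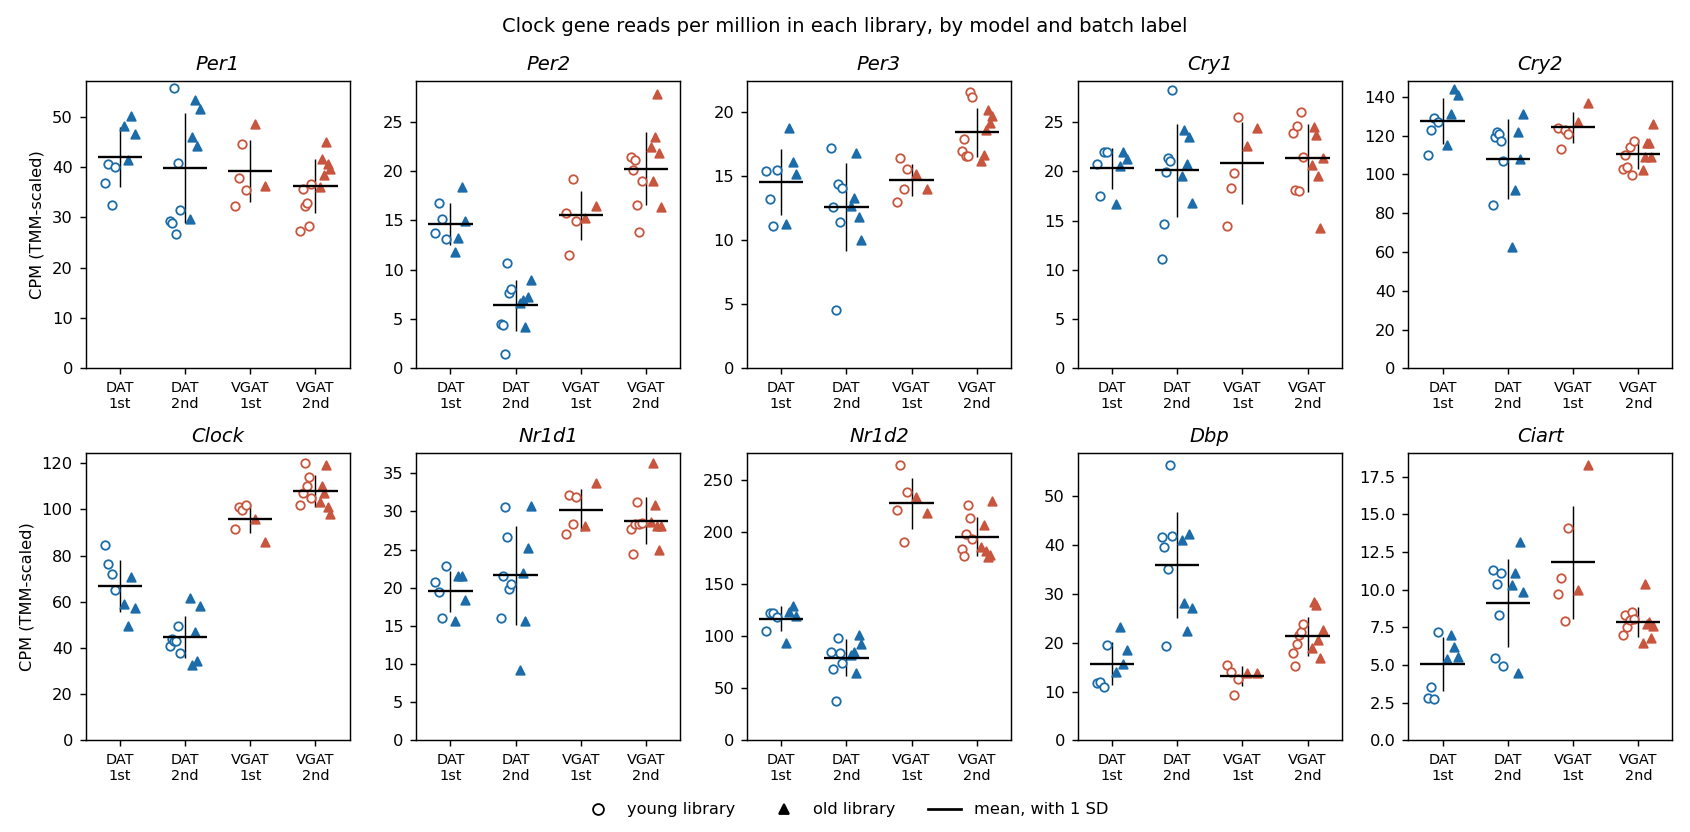
Level of each member in every library, in CPM on a linear axis, by model and batch, with the age group shown by the marker. Nr1d2 and Clock are the members whose DAT and VGAT libraries do not overlap (37.9 to 129 against 176 to 265 CPM for Nr1d2), and Per2 splits by batch within DAT. The share of all genes without overlap was not computed.

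Of the 10 members, 6 differed between the cell types, with the largest log2 differences for Nr1d2 (1.17), Per2 (1.09) and Clock (1.00). In a joint fit of the 37 libraries with a batch term, 5 members were higher and 1 was lower in VGAT than in DAT libraries at an adjusted p below 0.05 (edgeR quasi-likelihood test with Benjamini-Hochberg adjustment over all genes, and 6 by DESeq2). The background was wide, since 60.5% of the 16898 genes tested passed (30.4% higher and 30.0% lower), so the members' share of calls was close to that of all genes. Their median log2 difference was 0.34, against -0.01 over all genes. Because the shared batch term can hide differences between batches, each value is also given within the first batch (14 libraries) and within the second (23 libraries), where 43.9% and 56.6% of all genes passed.

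Nr1d2, which encodes REV-ERB beta, ran from 37.9 to 129 CPM in DAT libraries (median 93.5) and from 176 to 265 CPM in VGAT libraries (median 203). Every VGAT library was above every DAT library. The log2 difference was 1.17 ± 0.08 (SE), or 2.26-fold, with an adjusted p of 2.33e-16 (edgeR). It was 0.97 ± 0.08 in the first and 1.31 ± 0.11 in the second batch, and both passed (adjusted p of 1.89e-08 and 2.29e-10 by edgeR). The paralog Nr1d1, REV-ERB alpha, was 9.27 to 30.7 CPM in DAT (median 20.8) and 24.4 to 36.3 CPM in VGAT libraries (median 28.3). The groups overlapped, although 15 of 19 DAT libraries lay below the lowest VGAT library. Its log2 difference of 0.50 ± 0.10 (adjusted p = 2.08e-05, edgeR) was 0.65 ± 0.10 and 0.44 ± 0.14 within the batches and passed in each (adjusted p of 3.98e-05 and 0.00687, edgeR).

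Clock, the DNA-binding activator of the loop, was 32.8 to 84.5 CPM in DAT (median 49.4) and 85.9 to 120 CPM in VGAT libraries (median 103). As for Nr1d2, the groups did not overlap, though only narrowly. The share of all genes whose groups do not overlap was not computed, for this or any comparison below. The log2 difference was 1.00 ± 0.09 (adjusted p = 1.21e-12, edgeR). It was 0.52 ± 0.08 in the first and 1.29 ± 0.08 in the second batch, each past the threshold (adjusted p of 2.62e-05 and 1.34e-14, edgeR). Thus the direction was shared by the batches and the size was not: the difference between batches was itself 0.76 ± 0.13 (adjusted p = 1.78e-05, edgeR). Of all genes, 29.1% passed this test of batch by cell type, and among the members Clock, Per2 and Ciart did, also 3 by DESeq2.

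The Per genes, which encode repressors of CLOCK and BMAL1, did not move as a group. Per2 was 1.48 to 18.4 CPM in DAT (median 8.91) and 11.5 to 27.8 CPM in VGAT libraries (median 19), with a log2 difference of 1.09 ± 0.19 (adjusted p = 3.65e-06, edgeR). The difference was present in the second batch and not in the first. In the second, DAT libraries were at 1.48 to 10.7 and VGAT libraries at 13.8 to 27.8 CPM (log2 difference 1.66 ± 0.20, adjusted p = 1.95e-08, edgeR). In the first batch they were at 11.8 to 18.4 and 11.5 to 19.2 CPM (0.10 ± 0.13, adjusted p = 0.572, edgeR), ranges that nearly coincide. The batches differed by 1.53 ± 0.28 (adjusted p = 2.88e-05, edgeR). Per3 followed a like split, with a log2 difference of 0.35 ± 0.11 over all libraries (adjusted p = 0.00547), 0.02 ± 0.12 in the first batch (0.916) and 0.57 ± 0.14 in the second (0.00118, all by edgeR), although its batches did not differ past the threshold (0.53 ± 0.21, adjusted p = 0.0524, edgeR). That test did pass for Per3 when any of 7 DAT libraries was left out (old females 1 and 4, young females 3 and 5, young males 1, 3 and 5, adjusted p of 0.0187 to 0.0456). Per1 was 26.7 to 55.6 CPM in DAT (median 40.7) and 27.3 to 48.6 in VGAT libraries (median 36.4), nearly the same range. Its log2 difference of -0.11 ± 0.08 had an interval of -0.27 to 0.05 (adjusted p = 0.223, edgeR).

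The cryptochromes, the partners of the PER proteins in repression, gave no difference past the threshold. Cry1 was 11.1 to 28.3 CPM in DAT and 14.2 to 26 CPM in VGAT libraries (medians 20.7 and 21.5). Cry2 was 62.5 to 144 and 99.4 to 137 CPM (medians 121 and 115). The VGAT range lay within the DAT range for both. The intervals of the log2 difference were -0.12 to 0.25 for Cry1 and -0.11 to 0.14 for Cry2 (adjusted p of 0.560 and 0.871, edgeR), and neither passed within a batch.

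Dbp, an output gene whose protein binds D-boxes, was the 1 member that passed as lower in VGAT than in DAT libraries. It was 11.0 to 56.5 CPM in DAT (median 23.3) and 9.29 to 28.4 CPM in VGAT libraries (median 18.5). The ranges overlapped, but 7 of 19 DAT libraries exceeded every VGAT library. The log2 difference was -0.56 ± 0.12 (adjusted p = 9.12e-05, edgeR), with -0.71 ± 0.14 in the second batch (adjusted p = 4.33e-05, edgeR) and -0.22 ± 0.16 in the first, short of the threshold (adjusted p = 0.291, edgeR). Ciart, which encodes a further repressor of CLOCK and BMAL1, was 2.77 to 13.2 CPM in DAT (median 6.99) and 6.49 to 18.3 CPM in VGAT libraries (median 8.05). It did not pass over all libraries (0.33 ± 0.18, interval -0.04 to 0.69, adjusted p = 0.113, edgeR), but did without DAT young female 3 (0.41, adjusted p = 0.0448, edgeR). Within the first batch it did, at 2.77 to 7.19 CPM in DAT and 7.96 to 18.3 CPM in VGAT libraries without overlap (1.32 ± 0.22, adjusted p = 0.000104, edgeR), and the second batch gave -0.20 ± 0.18 (adjusted p = 0.356, edgeR). The batches differed by -1.49 ± 0.29 (adjusted p = 6.94e-05, edgeR).

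Nr1d2, Clock and Nr1d1 were therefore the members that passed over all libraries and in each batch, and these calls held when any 1 library was left out. The share of all genes that passed in all of these fits was not computed, so this count cannot be set against a background. Beside the batch differences stand those of the markers: over oligodendrocyte genes the median log2 difference between VGAT and DAT was -0.49 in the first and -2.20 in the second batch, and over GABA neuron genes 2.98 and 3.75. In the same order the median was -1.10 and -1.62 over astrocyte genes, -1.54 and -1.82 over endothelial genes and 0.18 and -0.21 over microglia genes. The part of these, and of the fewer genes with reads in second-batch DAT libraries, in the members' values was not tested.

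**Figure D2:**
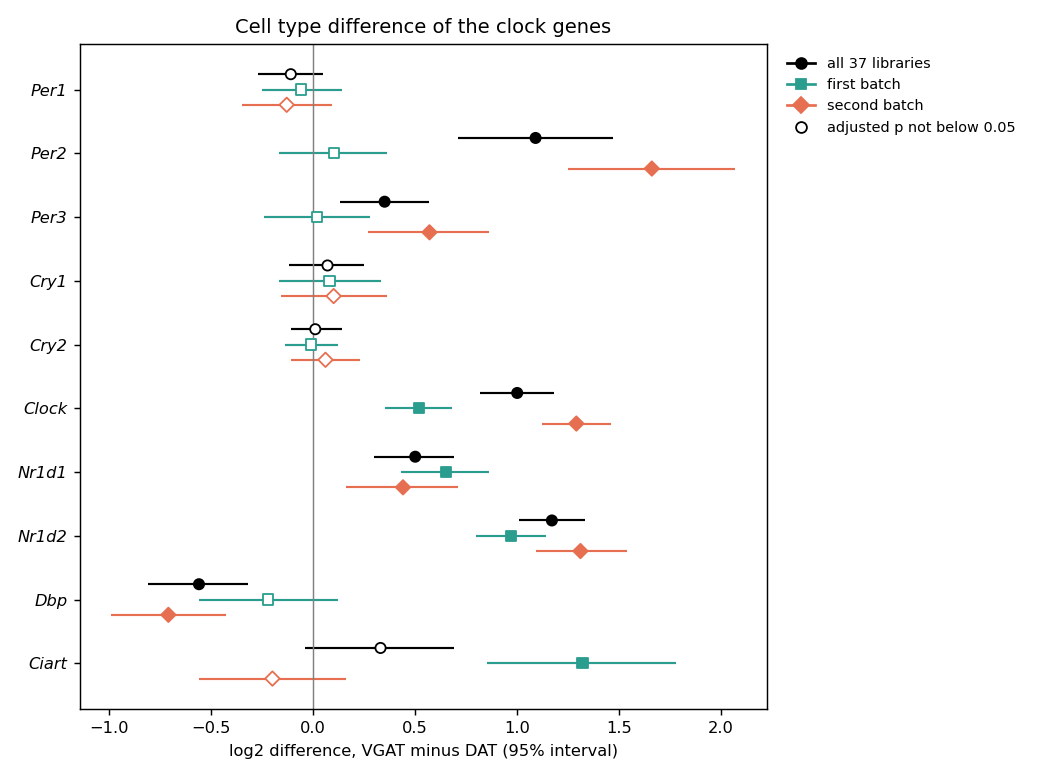
Log2 difference between VGAT and DAT libraries for each member with its 95% confidence interval, over all 37 libraries and within each batch. Nr1d2, Clock and Nr1d1 lie above 0 in all 3 fits, whereas Per2 is near 0 in the first batch (0.10) and at 1.66 in the second.

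Seen within each model, batch went with more of the clock genes than age did. In DAT libraries 5 members differed between batches (edgeR and DESeq2, against 34.4% of 14889 genes by edgeR). Dbp was 11.0 to 23.3 CPM in the first and 19.4 to 56.5 CPM in the second batch, a log2 difference of 1.21 ± 0.19 (adjusted p = 8.42e-06, edgeR). Per2 was 11.8 to 18.4 CPM in the first batch and 1.48 to 10.7 CPM in the second, with no overlap (-1.16 ± 0.24, adjusted p = 0.000326, edgeR). The output gene and this repressor thus differed in opposite directions. Ciart was also higher in the second batch (0.91 ± 0.26), and Clock (-0.56 ± 0.12) and Nr1d2 (-0.54 ± 0.12) were lower, with adjusted p of 0.00609, 0.000343 and 0.00117 (edgeR). Cry2 passed as well without DAT old male 5 (-0.28, adjusted p = 0.0312, edgeR).

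In VGAT libraries 7 members differed between batches (edgeR and DESeq2, against 28.9% of 15607 genes by edgeR), mostly by less. Dbp was 9.29 to 15.5 CPM in the first and 15.3 to 28.4 CPM in the second batch (log2 difference 0.68 ± 0.12, adjusted p = 0.000139, edgeR), the same direction as in DAT. Per2 (0.36 ± 0.12), Per3 (0.33 ± 0.08) and Clock (0.19 ± 0.05) were higher in the second batch (adjusted p of 0.0213, 0.00393 and 0.00560, edgeR). Ciart (-0.60 ± 0.14), Nr1d2 (-0.21 ± 0.07) and Cry2 (-0.18 ± 0.05) were lower (adjusted p of 0.00147, 0.0170 and 0.00579, edgeR). Per2 lost its call without VGAT old female 1, young female 2 or old male 1 (adjusted p of 0.0694, 0.0639 and 0.0528), and Nr1d2 without the first and second of these (0.0541 and 0.0580). Per2, Clock and Ciart thus passed in both models with opposite signs, and the difference is the test of batch by cell type given above. What the batches are (collection day, library preparation or sequencing run) is not stated, and since no time of collection is given, a batch and a time of day cannot be told apart.

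Mice of 1 model, batch and age still differed from one another, and in those deviations Per2 and Nr1d2 were correlated with opposite signs in the models. After batch and age means were removed from log2(CPM + 0.5), the 45 pairs of members in each model were correlated across mice. This test was chosen after the correlations had been seen. Sex means were not removed, so a difference between the sexes remains in these correlations. In DAT mice mean Per2 was 8.18 CPM in young females and 10.9 in young males (7.39 and 12.5 in the old). Mean Nr1d2 was 83.9 and 99.8 CPM (81.6 and 113 in the old). In VGAT mice, in the same order, Per2 was 18.2 and 16.1 CPM (21.6 and 18.2) and Nr1d2 206 and 218 (197 and 209). The part of sex in any correlation was not tested. Of 90 pairs, 3 passed (permutation test with 100000 resamples, Benjamini-Hochberg adjustment over the 90). The share of pairs of other genes with correlations of this size was not computed, so this count cannot be set against a background. In VGAT libraries (n = 18) Per2 and Nr1d2 gave Pearson's r = -0.88 (permutation p = 1e-05, the smallest that the resamples can give, adjusted p = 0.000900) and Spearman's rho = -0.87 (adjusted permutation p = 0.000900). In CPM with no means removed, the VGAT mouse with the least Per2 was young female 2 of the first batch. It had 11.5 CPM of Per2 and the most Nr1d2, 265 CPM. Old female 5 of the second batch had the most Per2, 27.8 CPM, and the least Nr1d2, 176 CPM. With batch and age means removed, Per2 was lowest in young male 3 (-0.43, Nr1d2 0.12) and highest in old female 5 (0.38, Nr1d2 -0.14). Nr1d2 was then highest in old male 3 (0.25, Per2 -0.36) and lowest in young female 3 (-0.26, Per2 0.37).

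The inverse relation in VGAT mice was present in the first batch (r = -0.97, n = 6) and in the second (r = -0.84, n = 12). It stayed between -0.90 and -0.85 when any 1 library was left out, and it was -0.88 without the 2 mice farthest from the median of Per2. In DAT libraries (n = 19) the same genes gave r = 0.89 (permutation p = 2.00e-05, adjusted p = 0.000900), with 0.72 in the first and 0.91 in the second batch. This positive relation was less even. It was 0.65 without the 2 farthest mice, and the rank correlation did not pass (rho = 0.68, adjusted permutation p = 0.0823). The farthest mouse was young female 5, with 1.48 CPM of Per2 (27 reads) and 37.9 CPM of Nr1d2, the lowest DAT values of both, and without it the relation was lowest, at 0.74. The difference between the models' r was 1.77 (permutation of libraries between models, p = 1e-05, the smallest possible here). That permutation, too, was chosen after the values were seen. It was run for this pair alone, picked because it had the smallest p in each model. Its p was not adjusted over the pairs, so it does not measure how rare such a difference is among them.

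The last pair that passed was Cry2 with Nr1d1 in DAT libraries (r = 0.74, permutation p = 0.00100, adjusted p = 0.0300). It rested on a few mice, since r was 0.36 without the 2 farthest and rho did not pass (0.53, adjusted permutation p = 0.278). In VGAT libraries the same pair had r = 0.01. Over the 45 pairs of a model, r ran from -0.59 to 0.89 in DAT, with 21 above 0, and from -0.88 to 0.62 in VGAT libraries, with 30 above 0.

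**Figure D3:**
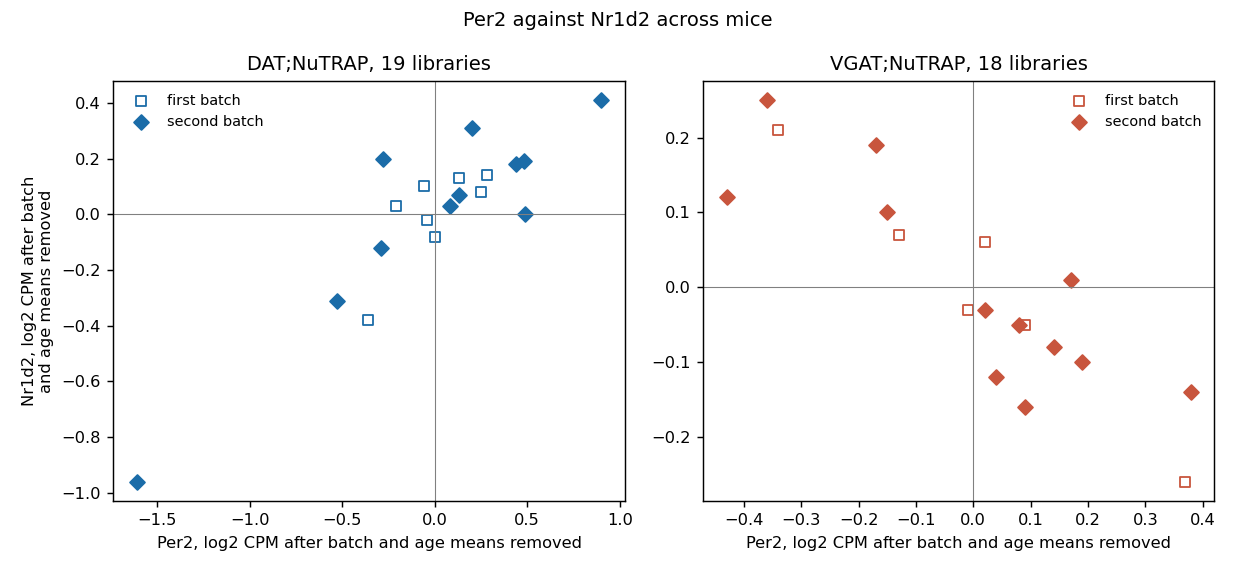
Per2 against Nr1d2 in each library of a model, as log2 CPM with batch and age means removed; the axes of the panels differ in range, and open and filled markers are the first and second batch. Points rise together in DAT (r = 0.89) with 1 mouse far at the lower left, and run downward in VGAT (r = -0.88).

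Age gave no member past the threshold in either cell type. In DAT libraries 0 of 10 members passed (edgeR, and 0 by DESeq2) against 0.00672% of all genes, and 1 member, Per1, had an unadjusted p below 0.05 where 5.28% of all genes did. In VGAT libraries 0 of 10 passed (edgeR, and 0 by DESeq2) against 0.0256%, and again only Per1 had an unadjusted p below 0.05 where 5.98% of all genes did. Looser limits like those of the study (adjusted p under 0.5, log2 difference over 0.5 in size) were met by 0 members and by 0.101% (DAT) and 0.199% (VGAT) of genes. Old minus young, the members' median log2 difference was 0.06 in DAT and 0.08 in VGAT libraries, against 0.00 over all genes in each.

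Per1, the period gene known to respond fastest to light, neuronal activity and stress hormones, had the smallest p of the members in both models. In DAT mice it was 26.7 to 55.6 CPM in the young (median 34.6) and 29.7 to 53.3 CPM in the old (median 46.6). In VGAT mice it was 27.3 to 44.6 CPM in the young (median 34.2) and 36.0 to 48.6 CPM in the old (median 40.1). The ranges overlapped, but 8 of 9 old DAT and 8 of 8 old VGAT mice were above the median of the young. The log2 difference was 0.33 ± 0.13 in DAT (interval 0.07 to 0.59, unadjusted p of 0.0137, adjusted p = 0.931, edgeR) and 0.28 ± 0.08 in VGAT libraries (0.12 to 0.44, unadjusted p of 0.00113, adjusted p = 0.456, edgeR), where it ranked 38 of 15607 genes by p. Neither passed the correction. Other settings of the fit gave 0.28 to 0.42 and 0.17 to 0.38, with adjusted p of at least 0.0800.

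Values of other genes that answer to activity stand beside Per1. Over all genes, 50.7% had a positive log2 difference with age in DAT and 49.5% in VGAT libraries. Of 11 immediate-early genes tested, 10 had a positive log2 difference with age in DAT (median 0.27, 0 at an unadjusted p below 0.05) and 8 in VGAT libraries (median 0.28, 5 at an unadjusted p below 0.05), and 0 passed in either by edgeR. Split by sex, 5 were positive in DAT females and 11 in DAT males (medians -0.05 and 0.48). In VGAT females and males 7 and 9 were positive (medians 0.07 and 0.45). Targets of the glucocorticoid receptor (5 genes) had medians of -0.00 and -0.01. Astrocyte markers were positive in 10 of 10 genes in DAT and 9 of 10 in VGAT libraries (medians 0.32 and 0.29), and oligodendrocyte markers in all 10 in each (0.27 and 0.35). Microglia markers were positive in 9 and 7 of 10 genes (medians 0.73 and 0.28, with 4 and 0 at an unadjusted p below 0.05) and endothelial markers in 5 and 4 of 5 (medians 0.46 and 0.21), and 0 genes of these 4 lists passed the threshold in either model by edgeR. By sex, oligodendrocyte markers were positive in 0 of 10 genes in VGAT females and 10 of 10 in VGAT males (medians -0.16 and 0.91). Microglia markers were positive in 10 of 10 genes in VGAT females and 1 of 10 in VGAT males (0.66 and -0.55). In DAT females and males, oligodendrocyte markers were positive in 10 and 9 genes (0.50 and 0.10) and microglia markers in 9 and 7 (1.07 and 0.36). The part of these in the values of Per1 was not tested.

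For the other members the intervals of the age difference were wider in DAT than in VGAT libraries. Per2 had -0.42 to 0.56 on the log2 scale in DAT and -0.05 to 0.40 in VGAT, Dbp had -0.38 to 0.37 and -0.08 to 0.37, and Ciart had -0.17 to 0.85 and -0.15 to 0.39. For Clock the intervals were -0.31 to 0.16 and -0.16 to 0.04. In VGAT libraries those of Nr1d2 (-0.16 to 0.10), Nr1d1 (-0.08 to 0.21) and Cry2 (-0.00 to 0.18) were similarly narrow, so that a difference of 0.5 in either direction lay outside each of them. In the test of age by cell type 0 of 10 members passed (edgeR, and 0 by DESeq2, with 0 at an unadjusted p below 0.05, where 2.76% of all genes were) against 0.00% of all genes.

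**Figure D4:**
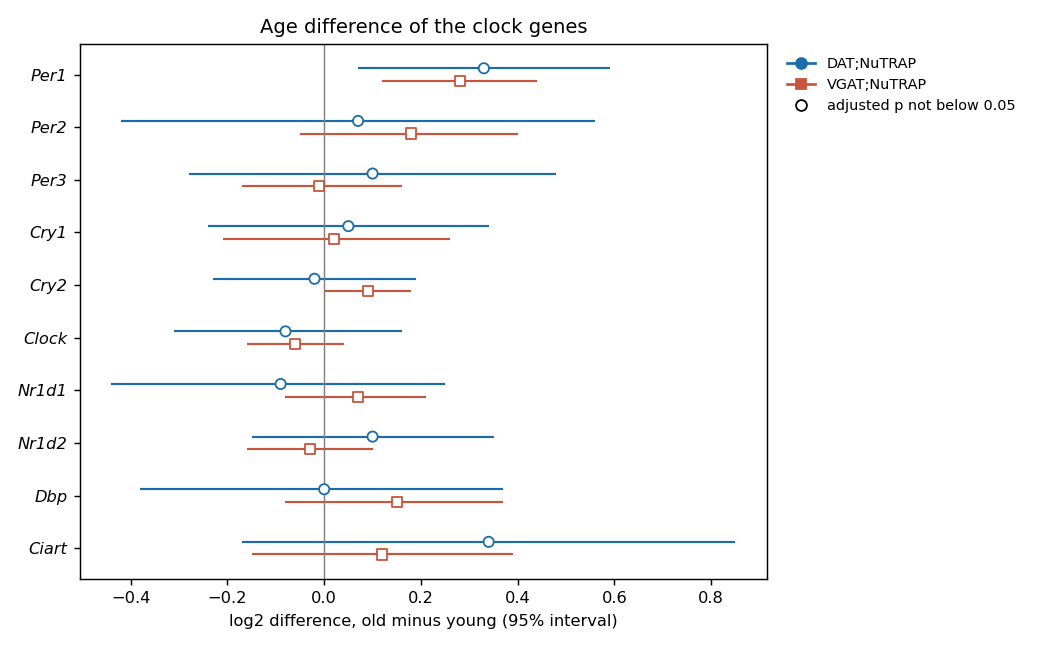
Log2 difference between old and young mice for each member with its 95% confidence interval, in DAT and in VGAT libraries. Per1 is the member whose interval lies above 0 in both models (0.07 to 0.59 and 0.12 to 0.44), and none passed the correction over all genes.

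Split by sex, age again gave 0 of 10 members in females and in males of each model, and 0 in the tests of age by sex (edgeR, and 0 by DESeq2). The shares of all genes called were 0.00672% (DAT females), 0.00% (DAT males), 0.0128% (VGAT females), 0.0384% (VGAT males) and 0.00% in both tests of age by sex. At an unadjusted p below 0.05 there was 1 member in DAT females (6.11% of all genes), 1 in DAT males (3.47%), 2 in VGAT females (3.44%), 1 in VGAT males (7.77%), 1 in age by sex in DAT (3.77%) and 0 in age by sex in VGAT mice (5.11%). Nr1d1 in DAT mice was -0.51 ± 0.22 in females (unadjusted p of 0.0314, adjusted p = 0.804, edgeR) and 0.19 ± 0.21 in males (adjusted p = 1.00, edgeR), and the difference of 0.69 ± 0.31 between them had an unadjusted p of 0.0323 (adjusted p = 1.00, edgeR). Per1 was 0.44 ± 0.18 in DAT males and 0.31 ± 0.10 in VGAT females, Dbp was 0.32 ± 0.14 in VGAT females, and Clock was -0.16 ± 0.07 in VGAT males, with adjusted p of 1.00, 1.00, 1.00 and 0.606 (edgeR). None therefore passed the correction.

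Of 20 further genes of the clock (other activators and repressors, kinases, ubiquitin ligases and D-box factors), all were tested, and 9 were higher and 2 lower in VGAT than in DAT libraries (median log2 difference 0.32, against -0.01 over all genes). Against the 60.5% of all genes that passed (30.4% higher and 30.0% lower), the share of 11 of 20 was near the background. Bmal1, the partner of CLOCK, was 11.8 ± 3.30 CPM in DAT (SD, n = 19) and 16.7 ± 2.05 CPM in VGAT libraries (n = 18), a log2 difference of 0.55 ± 0.11 (adjusted p = 6.01e-05, edgeR). Within the batches it was 0.28 ± 0.12 in the first, short of the threshold (adjusted p = 0.0667, edgeR), and 0.75 ± 0.15 in the second (adjusted p = 7.59e-05, edgeR). Npas2, which can replace Clock as that partner, went the other way, at 4.20 ± 1.39 and 2.7 ± 0.757 CPM (-0.63 ± 0.18, adjusted p = 0.00298, edgeR). Over all libraries the activator Clock and its substitute, at a low level, thus differed in opposite directions between the cell types. For Npas2 the difference was -0.99 ± 0.21 in the first batch (adjusted p = 0.000889, edgeR) and -0.38 ± 0.29 in the second (adjusted p = 0.273, edgeR). In old mice alone Npas2 did not pass either (-0.62, adjusted p = 0.0963, edgeR).

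Among D-box factors, Tef, a relative of Dbp, was higher in VGAT libraries (191 ± 32.5 against 286 ± 26.6 CPM, log2 difference 0.61 ± 0.06, adjusted p = 1.41e-12, edgeR), the direction opposite to Dbp. Tef also passed in each batch (0.54 ± 0.09 and 0.69 ± 0.06). Hlf (0.16 ± 0.09) and the D-box repressor Nfil3 (0.26 ± 0.13) did not pass (adjusted p of 0.133 and 0.0706, edgeR), but Hlf did without DAT old male 5 (adjusted p = 0.0472) and Nfil3 without DAT old female 1, 2 or 3, DAT young male 5 or VGAT young female 1 (adjusted p of 0.0234 to 0.0499, edgeR). Fbxl21, a ubiquitin ligase subunit that acts on cryptochromes, had 0 to 7.91 CPM in DAT and 8.87 to 16.7 CPM in VGAT libraries, with no overlap (1.72 ± 0.25, adjusted p = 1.05e-07, edgeR). Also higher were Gsk3b (0.78 ± 0.08) and Btrc (0.61 ± 0.07), a kinase and a ligase subunit that mark clock proteins for turnover, the repressors Bhlhe40 (0.73 ± 0.09) and Bhlhe41 (0.26 ± 0.06), and the Bmal1 activator Rora (0.49 ± 0.09), each past the threshold by edgeR. In the first batch alone Rora did not pass (0.22 ± 0.09, adjusted p = 0.0565, edgeR). Bhlhe41 did not pass in young mice alone (0.18, adjusted p = 0.0837, edgeR), and its call within the second batch (0.20 ± 0.08, adjusted p = 0.0331, edgeR) was kept in 14 of the 23 fits that left out 1 library (0.16 to 0.24, adjusted p of 0.0145 to 0.0761). It was lost there without DAT old female 4, old male 4, young female 5 or young males 4 or 5, or without VGAT old males 2 or 3, young female 6 or young male 2. With age, 0 of the 20 passed in either model (edgeR, with 0 at an unadjusted p below 0.05 in each), and the median log2 differences were 0.01 in DAT and 0.04 in VGAT libraries. Bmal1 gave -0.12 ± 0.20 and -0.00 ± 0.09.

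**Figure D5:**
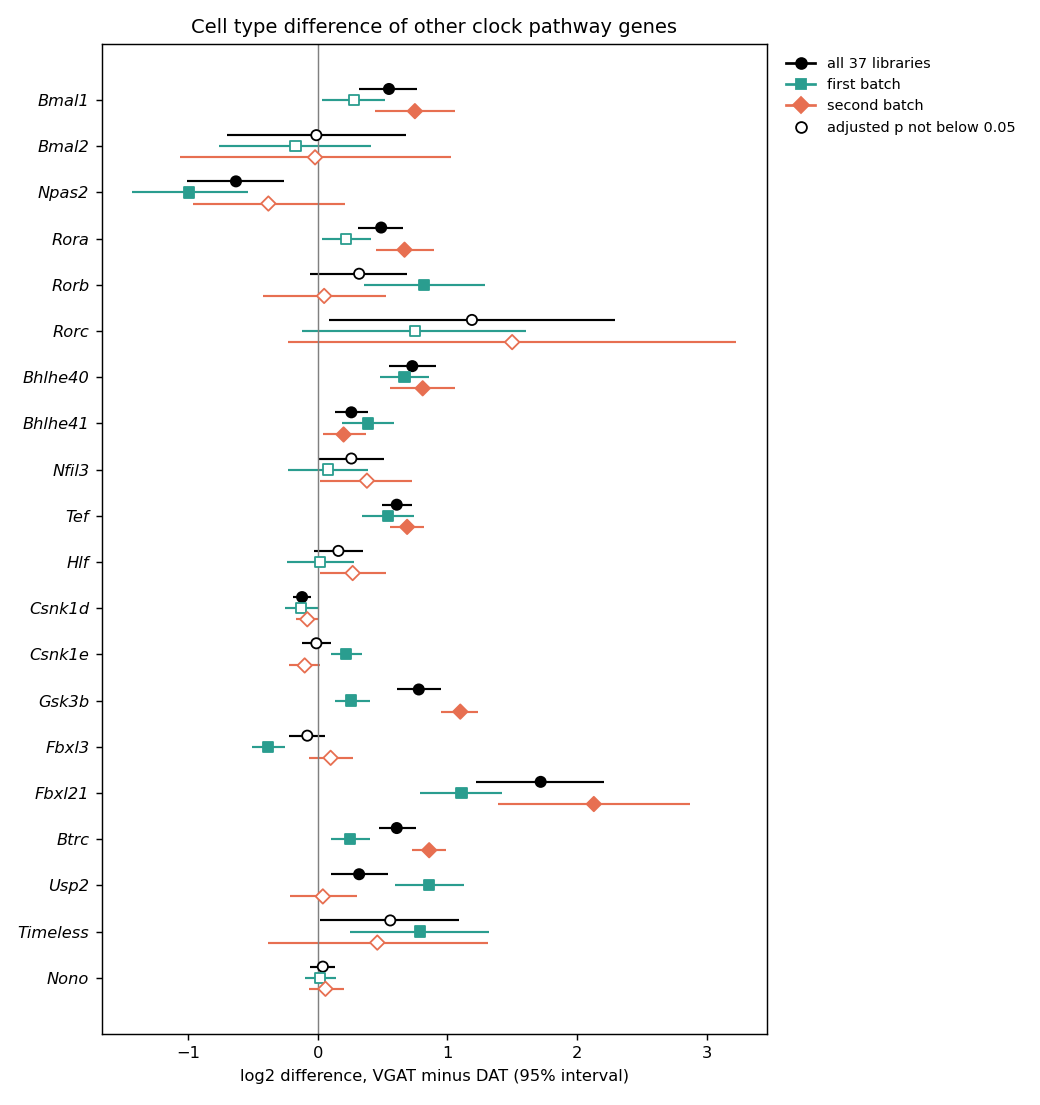
Log2 difference between VGAT and DAT libraries for the further clock genes with 95% confidence intervals. Fbxl21 lies farthest above 0 (1.72) and Npas2 farthest below (-0.63).

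Relations of Dbp with the 9 other members and with Bmal1, Npas2, Tef and Nfil3 were computed in each model, 26 in all. Over all libraries 3 passed (permutation test with 100000 resamples, Benjamini-Hochberg adjustment over the 26), and the share of all genes that would pass with Dbp was not computed. They were Clock (r = -0.72, adjusted permutation p = 0.00832) and Ciart (r = 0.71, 0.00832) in DAT libraries and Per3 (r = 0.65, 0.0351) in VGAT libraries, with rho of -0.72, 0.68 and 0.71. With batch and age means removed 0 of the 26 passed. Within the first and the second batch, r was -0.82 and -0.00 for Clock, 0.90 and 0.17 for Ciart and 0.00 and 0.15 for Per3. The relations with Clock and Ciart were thus present in the 8 first-batch DAT libraries, without passing the correction there (adjusted permutation p of 0.131 and 0.102), and not in the 11 of the second, and that with Per3 was near 0 in each batch. Within the 12 second-batch VGAT libraries, Dbp went with Nr1d1 (r = 0.85) and Tef (r = 0.87, adjusted permutation p of 0.00728 for each), against 0.09 and 0.58 in the 6 of the first batch.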

How the data were processed

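Ribosome-bound RNA of 37 mice was sequenced from poly-A libraries. The authors' alignment used STAR 2.7.10b and mouse build mm39 (GRCm39), and featureCounts gave the counts; its version, annotation and strand setting are not given in the sources used here. The deposited tables hold raw counts per gene, made before the authors' own low-count filter, removal of glial genes and batch correction. No column was left out.

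The members and gene lists were chosen with earlier results of these data known. Tests used edgeR 4.0.16 (R 4.3.3) with TMM factors, filterByExpr with a minimum count of 10, a robust quasi-likelihood fit and Benjamini-Hochberg adjustment over all genes, with 0.05 as the threshold. Old minus young was fitted per model with batch, and by sex from groups of age and sex. VGAT minus DAT was averaged over ages in 1 fit of all libraries with batch. The tests between batches and of batch by cell type were added after the data had been seen. CPM carry the same factors, and 0.5 was added before taking log2. DESeq2 1.42.0, other factors, filters and terms and leaving out libraries were alternatives. The fits were checked on simulated data. Promoters and positions came from GENCODE M39, which held 56620 of the identifiers. All 70 pairs of libraries within a group differed beyond sampling noise (lowest chi-square per degree of freedom 5.46).

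Named were all members, and of the wider list the genes past the threshold between cell types with the smallest p (up to 8) and always Bmal1, Npas2, Tef, Hlf, Nfil3 and Bhlhe41. Replicate numbers of the labels did not pair libraries, since deviations of same-numbered young and old mice correlated at -0.17 to 0.09.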

Additional observations from a re-analysis of the deposited data

Results flagged for a closer look

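In the groups of 4 to 6 mice of 1 model, age and sex, 5 of 70 sets of a member's values held a library set apart from the rest by Dixon's criterion, which chance alone gives in about 1 in 20 sets. Among DAT young females, Per3 was 4.56 CPM in mouse 5 against 12.6 to 17.2 in the others, and Cry2 was 84.0 CPM in mouse 3 against 110 to 123. Mouse 5 is also the one with the lowest Per2 and Nr1d2, and in mouse 3 7.01% of reads came from the ribosomal gene Rn18s-rs5. Among DAT young males, Cry1 was 28.3 CPM in mouse 5 against 21 to 22. In VGAT young male 1, Dbp was 12.6 CPM against 21.7 to 23.8 and Ciart 14.1 CPM against 8.02 to 8.56. That mouse is the only first-batch library of its group, and both genes differed between batches in the same directions over all VGAT libraries.

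The difference between cell types itself differed between batches for 3 members, as second minus first batch on the log2 scale: Per2 by 1.53, Clock by 0.76 and Ciart by -1.49 (edgeR, adjusted p of 2.88e-05, 1.78e-05 and 6.94e-05).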

How the results depend on the processing

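No age result of a member crossed the threshold under any alternative or with any library left out. Between cell types, 4 to 7 members passed over all alternatives. Per3 lost its call in young mice alone (adjusted p = 0.0552), in old mice alone (0.0676) and with a replicate block (log2 difference 0.31, 0.0714). Ciart gained one with a batch term for each model (0.52, 0.00202) and without the 2 libraries rich in Rn18s-rs5 (0.41, 0.0471). The values within batches are given above. With a replicate block, which largely follows batch, 2 members (5 as reported) differed between batches in DAT, Dbp and the newly passing Cry2 (-0.59, adjusted p = 0.0361), and 0 (7 as reported) in VGAT libraries, and the block changed no other call of a member. Leaving out 1 library gave 3 to 5 members in the test of batch by cell type, the most without DAT old female 4, young female 5 or young male 3. For Dbp, 2 to 5 relations passed with 1 library left out (5 without DAT young female 5), and 0 with batch and age means removed or in the first batch alone. Of the pairs of members, 8 passed with no means removed, 0 in the first batch alone and 2 to 4 with 1 library left out. Of the further clock genes, each that passed between cell types did so with any 1 library left out, and Csnk1e passed in the first batch alone (0.22, adjusted p = 0.00351) with the sign turned. Over all genes, the calls with age ran over the alternatives from 0 to 13 in DAT (1 as reported, most by DESeq2) and 0 to 52 in VGAT libraries (4 as reported, most in the second batch alone; DESeq2 gave 23). They ran from 0 to 49 and 0 to 45 in DAT females and males (1 and 0 as reported), 0 to 95 and 3 to 195 in VGAT females and males (2 and 6), and 0 to 33 and 0 to 63 in age by sex of DAT and VGAT mice (0 each), the most in each with no filter on low counts. With the replicate block the calls between batches were 1693 in DAT (5115 as reported) and 221 in VGAT libraries (4514). Few reads limit Per2 in DAT, where the lowest library held 27 of 18392410 counts. The causes of these changes were not tested.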

Other observations

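Of the cold-inducible RNA-binding protein genes, which follow body temperature and are known to adjust the rhythm of clock transcripts, Cirbp rose with age in the GABA neurons. It was 35.1 to 64.6 CPM in young (median 43.7) and 49.3 to 75.8 CPM in old VGAT mice (median 57.1), overlapping ranges, with a log2 difference of 0.44 ± 0.08 (adjusted p = 0.0314, edgeR). In VGAT males it was 0.70 ± 0.11 (adjusted p = 0.00563, edgeR), in females 0.27 ± 0.09 (adjusted p = 1.00, edgeR), and the test of age by sex did not pass (0.43 ± 0.14, adjusted p = 0.952, edgeR). The call over both sexes depended on single mice and settings: it was kept in 8 of the 18 fits that left out 1 library (log2 differences of 0.40 to 0.48, adjusted p of 0.00474 to 0.119) and lost with a replicate block (0.49, adjusted p = 0.101), without a batch term (0.40, 0.771), in the first batch alone (0.51, 0.999) and without the mice of 24, 10.5 and 7 months (0.49, 0.0966). It was lost without old males 1, 2 or 3, old female 1, young males 2 or 3 or young females 3, 4, 5 or 6. The call in males held with any 1 library left out (0.63 to 0.78, adjusted p of 0.000934 to 0.0321) and was lost without a batch term (0.73, 0.204). These alternatives were chosen after the data were seen. In DAT libraries Cirbp gave 0.04 ± 0.12 with age (adjusted p = 1.00, edgeR), and age by cell type did not pass (0.38 ± 0.20, adjusted p = 1.00, edgeR). Its partner Rbm3 gave 0.68 ± 0.28 in VGAT (adjusted p = 0.823, edgeR) and 0.20 ± 0.26 in DAT libraries (adjusted p = 1.00, edgeR).

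The spread between mice of 1 batch and age was larger in DAT than in VGAT libraries for each of the 10 members, at SDs of 0.26 to 0.55 against 0.09 to 0.27 on the log2 scale. Over all genes tested the median SD was 0.34 in DAT and 0.20 in VGAT libraries. In VGAT mice Cry2 and Clock had the smallest SD of the members (0.09 each), and Ciart and Cry1 the largest (0.27 each).

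The genes whose levels were most like those of Dbp across mice, after batch and age means were removed, were Otub1 (r = 0.82) and Phyh (0.82) in DAT (n = 19) and Polb (0.83) and Cpeb3 (0.78) in VGAT libraries (n = 18). The most inverse were Oprk1, the kappa opioid receptor (-0.88), in DAT and Gal3st3 (-0.82) in VGAT libraries. All are the extremes of 13186 genes searched in each model. In the other model r was -0.06 for Otub1, 0.23 for Phyh, 0.57 for Polb and -0.62 for Cpeb3. For Oprk1 and Gal3st3 it was -0.01 and -0.09. These values are a description, in libraries that share depth and batch structure.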
